A study of Arabidopsis thaliana with 8 samples.

Results

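Cytochrome P450 genes were followed across 4 longitudinal zones of the Arabidopsis thaliana root (ecotype Columbia), which the labels number and call developmental stages. A gene was taken as a P450 when its probe set was paired with that gene alone and its symbol was CYP with a P450 family number and a subfamily letter. This gave 23 genes of the 13350 with a probe set of their own: 19 of the CYP71 family, all CYP71B genes, and 1 each of CYP51, CYP78, CYP79 and CYP84. No gene had more than 1 such probe set, and the probe annotation covers a small part of the superfamily, for which the TAIR10.1 gene table lists 236 symbols of this form. Seedlings had grown for 5 days on MS medium and had then been moved to a medium lacking sulfur, 3 hours ahead of dissection. All 8 samples, 2 per zone, had this treatment and no other group is in the labels, so the comparisons are between zones of roots at low sulfur. The labels say neither which zone holds the root tip nor whether replicates 1 and 2 are separate plants. The p-values therefore cover only the spread of these replicates, and that spread may be technical.

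P450s are haem-thiolate monooxygenases, most of them anchored in the endoplasmic reticulum and supplied with electrons by NADPH-cytochrome P450 reductase. Each family tends to serve its own branch of metabolism: CYP79 enzymes turn amino acids into oximes, CYP84 enzymes hydroxylate phenylpropanoids, and CYP51 enzymes demethylate sterols. The CYP71B subfamily is large in Arabidopsis and lies mostly in tandem arrays of genes, many of them without an assigned substrate.

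Signals are MAS5 signals, 1 value per probe set and array on a linear scale, and differences are between zones for 1 probe set. Brightness differs between probe sets, so their levels are not set against each other beyond the filter on dim signals, and in a summed signal the brighter probe set weighs more. Array medians lay between 57.8 and 79.6. Precision is limited by the number of arrays. For the GAPDH control, the ratio of the 3' to the 5' probe set signal ran from 13.2 to 64.3, and the lowest and the highest array were both of zone 1. In these bulk sections, fewer cells of a type and less RNA per cell cannot be told apart. Of 12 root markers 2 had a named probe set: the meristem gene BBM and the root hair expansin gene EXPA7. They ran different courses. BBM had 601 and 149 in zone 1, 7.61 and 8.76 in zone 2, 1.60 and 10.8 in zone 3, and 156 and 235 in zone 4, high in the first and last zones. EXPA7 had 17.4 and 4.89 in zone 1, 24.9 and 71.9 in zone 2, 145 and 118 in zone 3, and 164 and 619 in zone 4, with no overlap between zones.

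Most P450 genes were dim. The 40% of probe sets with the lowest mean over the arrays (42.5 or less) were not tested, and 18 of the 23 P450 genes fell among them. The 5 that were tested were CYP84A4, CYP71B34, CYP71B6, CYP71B26 and CYP51G2. CYP71B34 was the nearest above the filter, with a mean of 54.0, and CYP78A9 the nearest below, with 37.7. CYP71B34 passed only through zones 3 and 4, with zone means of 64.3 and 110, against 12.8 and 29.3 in zones 1 and 2. CYP78A9 had zone means of 69.8 and 45.9 in zones 1 and 2 and 15.6 and 19.6 in zones 3 and 4. Which genes were tested thus depended in part on the zones where they were high. In 11 of the 18 dim genes no array exceeded the 40th percentile of its own signals, a value between 27.1 and 47.6. The 2 arrays of a zone differed by a median ratio of 2.49 in the 18 dim genes and 1.49 in the 5 tested ones, against 2.19 over all probe sets left out and 1.33 over all kept.

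**Figure D1:**
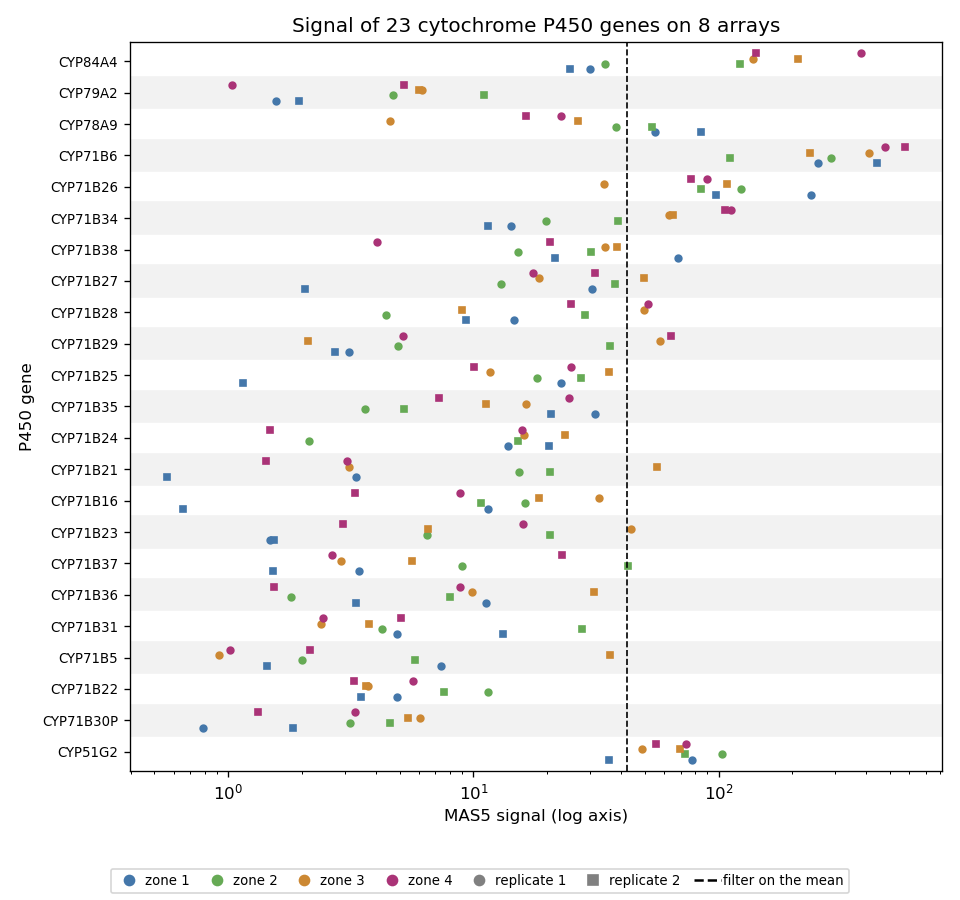
Signal of each of the 23 P450 genes on each of the 8 arrays (log axis), coloured by zone, with circles for replicate 1 and squares for replicate 2. The dashed line marks the filter on the mean, 42.5, and most points of the 18 dim genes lie to its left.

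CYP84A4 and CYP71B34 differed between zones, both with their lowest signals in zone 1 and their highest in zone 4. By limma's moderated F-test 2 of the 5 tested genes passed (adjusted p under 0.05), where 26.9% of all probe sets did, and read against that background the count is no result about P450s as a group. Both were called higher in zone 3 than in zone 1, and both higher in zone 4 than in zone 1, where a call needs a difference of 2-fold or more and an adjusted p under 0.05. The same rule called 38% of all probe sets between zones 3 and 1, with 18% higher in zone 3, and it called 14.3% between zones 4 and 1, with 10.5% higher in zone 4. The counts of P450 genes also depend on the filter. It let CYP71B34 in through zones 3 and 4 and left out CYP78A9, whose means were higher in zones 1 and 2.

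CYP84A4 (AT5G04330) encodes a relative of ferulate 5-hydroxylase, known from the synthesis of alpha-pyrones out of a caffeoyl intermediate of the phenylpropanoid pathway. Its signal was 29.9 and 24.9 in zone 1, 34.3 and 122 in zone 2, 138 and 212 in zone 3, and 381 and 142 in zone 4. Every zone 3 and zone 4 array lay above every zone 1 and zone 2 array, while zones 3 and 4 overlapped. It was 6.27-fold higher in zone 3 than in zone 1 (log2 difference 2.65, SE 0.64, adjusted p = 0.009) and 8.53-fold higher in zone 4 than in zone 1 (3.09, SE 0.64, adjusted p = 0.012). Both zone 1 arrays and zone 2 replicate 1 were dim, with CYP84A4 not above the 40th percentile of their own signals. The folds against zone 1 therefore rest on dim zone 1 signals. With each array floored at that percentile, both calls held. Without the floor, zone 2 against zone 1 gave a log2 difference of 1.25 (95% interval -0.18 to 2.67). That interval holds both 0 and a several-fold difference. The call against zone 1 was lost in zone 4 without zone 4 replicate 1 (log2 difference 2.38, adjusted p = 0.11) and in zone 3 without zone 3 replicate 2 (2.34, adjusted p = 0.052). The F-test had an adjusted p of 0.017, which became 0.057 without zone 1 replicate 2 and 0.052 without zone 4 replicate 1.

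CYP71B34 (AT3G26300), a member of the CYP71B array on chromosome 3, had the tightest replicates of the tested genes in zones 3 and 4. Its signal was 14.2 and 11.4 in zone 1, 19.7 and 38.9 in zone 2, 63.0 and 65.5 in zone 3, and 113 and 107 in zone 4. No zone overlapped with another, and the order of the means followed the zone numbers. It was 5.04-fold higher in zone 3 than in zone 1 (log2 difference 2.33, SE 0.68, adjusted p = 0.02) and 8.59-fold higher in zone 4 than in zone 1 (3.10, SE 0.68, adjusted p = 0.014). The gene passed the filter only through zones 3 and 4, where it was high, so that choice enters these tests. Without the filter, limma gave an adjusted p of 0.027 in zone 3 and 0.016 in zone 4 against zone 1. Neighbouring zones did not differ beyond the test's threshold, with log2 differences of 1.12, 1.21 and 0.77 from each zone to the next and adjusted p of 0.29, 0.37 and 0.61.

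The zone 1 signals of CYP71B34 were dim. With each array floored at its own 40th percentile, the log2 differences from zone 1 were 1.09 in zone 3 and 1.86 in zone 4, both still called. Leaving out single arrays ended the zone 3 call for each zone 3 array (adjusted p = 0.072 without replicate 1 and 0.062 without replicate 2) and for zone 4 replicate 1 (0.055). The zone 4 call ended without zone 4 replicate 1 (adjusted p = 0.11) or replicate 2 (0.13), and the F-test, with an adjusted p of 0.024, rose to 0.12 and 0.11 without the same arrays. Over the 8 arrays the log2 signals of CYP71B34 and CYP84A4 had a Pearson r of 0.947 and a Spearman rho of 0.976, the highest of the 10 pairs among the 5 tested genes. This is a description of arrays that share 4 zones.

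**Figure D2:**
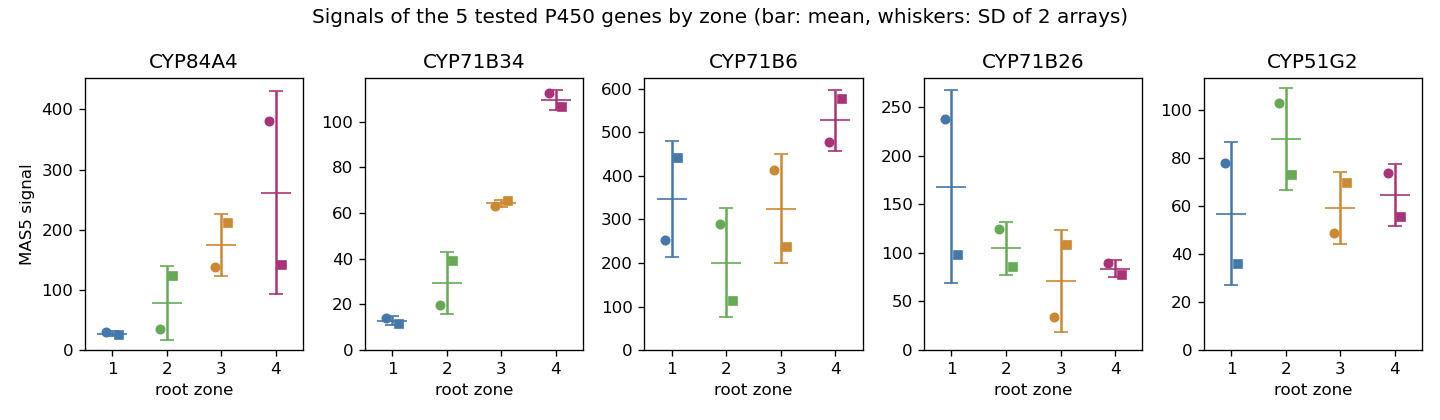
MAS5 signal of the 5 tested P450 genes in zones 1 to 4, each panel on its own linear axis from 0, with replicate 1 as circles, replicate 2 as squares, the mean as a bar and the SD of 2 arrays as whiskers. CYP71B34 runs from 11.4 to 113 with no overlap between zones, while CYP51G2 and CYP71B26 overlap in most of them.

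A root hair marker and a shoot marker had their means in the same zone order as these 2 P450 genes. EXPA7, whose signals are given above, was called higher in the same 2 comparisons. It was 14.1-fold higher in zone 3 and 34.5-fold higher in zone 4 than in zone 1 (limma, adjusted p = 0.0047 and 0.0032). Of all probe sets, 18% were called higher in zone 3 and 10.5% in zone 4 against zone 1. EXPA7 passed the filter through its zone 3 and zone 4 means of 131 and 391, against 11.2 and 48.4 in zones 1 and 2. The filter therefore enters its tests, as for CYP71B34. Without the filter, limma gave EXPA7 an adjusted p of 0.0054 in zone 3 and 0.0028 in zone 4 against zone 1. Its zone 4 call ended without zone 4 replicate 2 (log2 difference 4.15, adjusted p = 0.06), and flooring dim signals as above gave 2.11 and 3.40 in place of 3.82 and 5.11. RCA, the Rubisco activase gene and the only one of 16 shoot markers with a named probe set, had signals of 5.81 to 23.9 in zone 1, 24.8 to 36.1 in zone 2, 35.7 to 94.7 in zone 3 and 69.5 to 106 in zone 4. It had log2 differences of 2.30 in zone 3 and 2.86 in zone 4 against zone 1 (limma, adjusted p = 0.062 and 0.056), neither of them called. RCA also passed the filter through zones 3 and 4, with means of 65.2 and 87.7 there, against 14.9 and 30.4 in zones 1 and 2. The part of EXPA7-expressing or shoot cells in the P450 differences was not tested. The 3 named division markers, AUR1, AUR2 and AUR3, summed to 1454 to 2820 in zone 1, 856 to 914 in zone 2, 183 to 467 in zone 3 and 1210 to 1708 in zone 4. They were therefore high in both zone 1 and zone 4, where the 2 P450 genes had their lowest and highest signals.

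CYP71B6 (AT2G24180), which oxidises indole-3-acetonitrile, was above the 40th percentile on all 8 arrays. Its signal was 254 and 441 in zone 1, 288 and 112 in zone 2, 413 and 237 in zone 3, and 478 and 577 in zone 4. Both zone 4 arrays lay above the 6 others, which overlapped. It did not pass the F-test (adjusted p = 0.14). The widest contrast was zone 4 against zone 2, with a log2 difference of 1.55 (95% interval 0.46 to 2.63, unadjusted p = 0.0096, adjusted p = 0.26). Leaving out replicate 1 of zone 2 gave 2.23 and leaving out replicate 2 gave 0.86, neither of them called.

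CYP71B26 (AT3G26290), which has 1 annotated gene between it and CYP71B34 on chromosome 3, did not share its pattern of means. Its signal was 238 and 97.6 in zone 1, 124 and 85.0 in zone 2, 34.1 and 108 in zone 3, and 89.9 and 77.4 in zone 4. The highest array was of zone 1 and the lowest of zone 3, zones 1, 2 and 3 overlapped, and both zone 4 arrays lay below both of zone 1. Zone 3 against zone 1 gave a log2 difference of -1.33 (95% interval -2.66 to 0.00059, adjusted p = 0.1). It was called without zone 1 replicate 2 (-1.97, adjusted p = 0.047) or without zone 3 replicate 2 (-2.16, adjusted p = 0.022), and was -0.69 and -0.50 without replicate 1 of zone 1 or of zone 3, where it was not called. The difference between the 2 genes' responses was not tested.

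CYP51G2 (AT2G17330), a relative of the sterol demethylase gene that the gene table annotates as a transcribed pseudogene, had no contrast past the threshold. Its signal was 77.8 and 35.9 in zone 1, 103 and 73.02 in zone 2, 48.7 and 69.7 in zone 3, and 73.8 and 55.5 in zone 4. Only zones 2 and 3 did not overlap. The F-test gave an adjusted p of 0.69, and the 95% intervals of its log2 differences ran from -1.77 at the lowest to 1.91 at the highest, so differences of several-fold lie within them. CYP71B27, among the dim genes, is also annotated as a transcribed pseudogene.

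**Figure D3:**
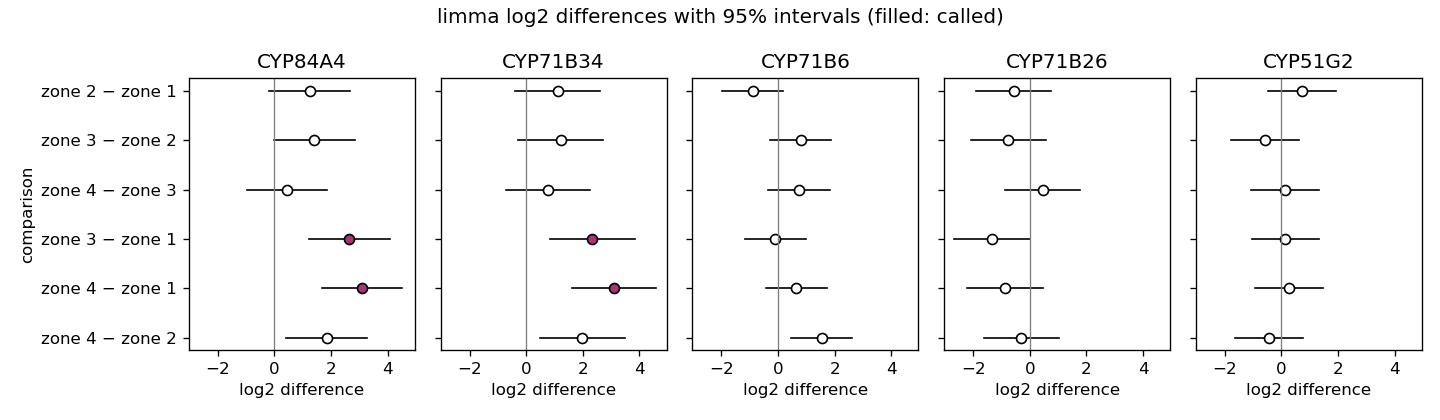
Log2 difference (limma, filled when called) with its 95% interval for the 5 tested P450 genes in 6 comparisons of zones. The 4 filled points are CYP84A4 and CYP71B34 in zone 3 and in zone 4 against zone 1.

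The other comparisons called no P450 gene in limma. Between zones 2 and 1, 0 of the 5 tested genes were called, with 0 at an unadjusted p under 0.05, where 12.1% of all probe sets were called. Between zones 3 and 2 and between zones 4 and 3 there were also 0 called and 0 at an unadjusted p under 0.05, where 0% and 2.11% of all probe sets were called. Between zones 4 and 2, 0 were called, where 0.00733% of all probe sets were called. In that comparison 3 had an unadjusted p under 0.05, CYP84A4, CYP71B34 and CYP71B6. The share of all probe sets at an unadjusted p under 0.05 was not computed. The shares called are therefore no background for the unadjusted counts.

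In the dim genes the 2 arrays of a zone often disagreed. In 15 of the 18 the 2 arrays of at least 1 zone differed by over 5-fold, which happened in 0 of the 5 tested genes. That share was not computed over all probe sets. The median ratio of 2.49 in the dim genes was near the 2.19 of all probe sets left out, so the count is no result about P450s. CYP71B29 had 57.5 and 2.11 in zone 3 and 5.14 and 64.1 in zone 4, and CYP71B5 had 0.918 and 36.0 in zone 3. Each of these signals stood on 1 array of a pair, so no zone can be given as high for these genes. Single signals of the 16 dim CYP71B genes ranged from 0.561 to 68.3, and their means over the 8 arrays from 3.31 to 29.1.

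With the filter removed and all 23 genes in the fit, CYP84A4 and CYP71B34 were called in the same comparisons and 0 of the 18 dim genes were called in any. In that fit 5.94%, 0%, 1.16%, 22.6%, 8.19% and 0.0264% of all probe sets were called, for zone 2 against 1, 3 against 2, 4 against 3, 3 against 1, 4 against 1 and 4 against 2. Some dim CYP71B genes reached an unadjusted p under 0.05, a share that was not computed over all probe sets. CYP71B16, CYP71B21, CYP71B23 and CYP71B37 were higher in zone 2 or zone 3 than in zone 1, and CYP71B35 was lower in zone 2. CYP71B21 had 3.32 and 0.561 in zone 1 against 15.4 and 20.5 in zone 2 (log2 difference 3.70, SE 1.50, adjusted p = 0.17). CYP71B23 had 1.48 and 1.54 in zone 1 against 44.0 and 6.55 in zone 3 (log2 difference 3.49, SE 1.35, adjusted p = 0.084). CYP71B35 went the other way, with 31.2 and 20.6 in zone 1 against 3.61 and 5.22 in zone 2 (log2 difference -2.55, SE 1.06, adjusted p = 0.18). All of these signals lie near or under the 40th percentile of their arrays.

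CYP78A9 (AT3G61880), known from growth of fruits and seeds, had the lowest adjusted p of the dim genes and its highest signals in zone 1. Its signal was 55.02 and 84.7 in zone 1, 38.3 and 53.5 in zone 2, 4.55 and 26.6 in zone 3, and 22.9 and 16.4 in zone 4. Both arrays of zones 1 and 2 lay above all those of zones 3 and 4, and both zone 1 arrays above both of zone 2. Without the filter, zone 3 against zone 1 gave a log2 difference of -2.63 (SE 0.93, unadjusted p = 0.015, adjusted p = 0.061), which did not pass. CYP79A2 (AT5G05260), which turns phenylalanine into its oxime for benzylglucosinolate, had signals from 1.04 to 11.0 on the 8 arrays. It exceeded the 40th percentile on none of them.

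The CYP71 family showed no direction shared by all its genes, though its median log2 differences from zone 1 were all positive. Its 19 genes had their highest zone mean in zone 1 for 3 genes, in zone 2 for 3, in zone 3 for 9 and in zone 4 for 4. Over all probe sets, dim ones included, 29.5%, 19.7%, 31.4% and 19.4% had their highest mean in zones 1 to 4. Over the kept probe sets the shares were 39%, 14.3%, 28% and 18.7%, so they vary with brightness. Shares over dim probe sets alone were not computed. From zone 1 to zone 2 both arrays were higher in 7 of the 19 and lower in 1, where 29.6% and 22% of all probe sets did so. From zone 1 to zone 3 both arrays were higher in 4 and lower in 2, against 33.7% and 25.5%. From zone 3 to zone 4 they were higher in 2 and lower in 6, against 23.6% and 22.6%. Counts for zones 3 against 2, 4 against 1 and 4 against 2 are left out. Their shares over all probe sets were not computed. The median log2 differences of the 19 genes without the filter were 1.12 for zone 2 against zone 1, 0.85 for zone 3 against zone 1 and 0.65 for zone 4 against zone 1, beside 0.17, 0.25 and 0.11 over all probe sets. Since 16 of the 19 are dim, these medians rest mostly on signals near the floor of the arrays. Over the kept probe sets alone the medians were -0.0021, -0.011 and 0.0013. Medians over dim probe sets alone were not computed, so the gap to all probe sets is no result about CYP71. The families CYP51, CYP78, CYP79 and CYP84 had 1 gene each, so their differences from CYP71 were not tested.

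Most of the CYP71B genes lie in 3 runs, in which neighbouring members have at most 10 annotated genes between them: 11 genes on chromosome 3 from CYP71B16 to CYP71B37, CYP71B5, CYP71B30P and CYP71B31 also on chromosome 3, and CYP71B27, CYP71B28 and CYP71B29 on chromosome 1. Within the run of 11, CYP71B26 and CYP71B34 passed the filter and the other 9 did not. The highest zone means of the 11 were spread over all zones, in zone 3 for 6, in zone 2 for 2, in zone 1 for 2 and in zone 4 for 1. CYP71B35, adjacent to CYP71B34, had 31.2 and 20.6 in zone 1, 3.61 and 5.22 in zone 2, 16.4 and 11.3 in zone 3, and 24.6 and 7.21 in zone 4. Its highest array was of zone 1, where CYP71B34 had its lowest signals. Genes of such arrays can be close copies, and how far their probe sets take up RNA of a neighbour was not tested.

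**Figure D4:**
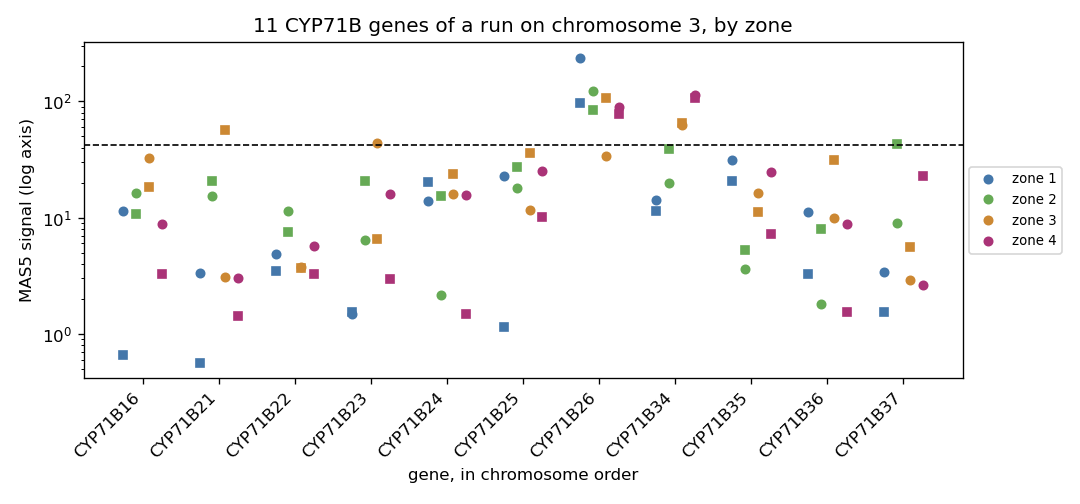
Signals (log axis) of the 11 CYP71B genes of the chromosome 3 run, placed in chromosome order, with a point per array coloured by zone, circles for replicate 1 and squares for replicate 2. CYP71B26 and CYP71B34, plotted side by side, stand above the dashed filter line of 42.5 on some or most arrays, and the other 9 genes lie mostly below it.

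Partner genes of P450 pathways were few on the named part of the array: of 92 loci listed in 10 pathway lists, 7 had a named probe set and 4 were tested. HCT, the acyltransferase that makes the shikimate esters hydroxylated by a P450 of lignin synthesis, had signals of 278 and 452 in zone 1, 593 and 392 in zone 2, 1757 and 649 in zone 3, and 1003 and 1926 in zone 4. Every array of zones 3 and 4 lay above those of zones 1 and 2. It was 3.01-fold higher in zone 3 than in zone 1 (limma, adjusted p = 0.03) and 3.92-fold higher in zone 4 than in zone 1 (adjusted p = 0.029). The zone 3 call ended without zone 1 replicate 1 (adjusted p = 0.14) or zone 3 replicate 1 (log2 difference 0.87, adjusted p = 0.25). The zone 4 call ended without zone 1 replicate 1 (adjusted p = 0.11) and without either zone 4 array (0.051 for replicate 1 and 0.22 for replicate 2). With each array centred on its median neither was called (0.061 and 0.07), nor with a prior variance without trend (0.061 and 0.067). The other phenylpropanoid and flavonoid gene found, DFR, was dim, with means of 8.91, 47.6, 47.8 and 15.6 in zones 1 to 4.

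Of the glucosinolate partners, 3 of 17 had a named probe set and UGT74B1, which glucosylates thiohydroximates, was the one tested. Its signal was 305 and 283 in zone 1, 1060 and 447 in zone 2, 785 and 451 in zone 3, and 578 and 705 in zone 4. All arrays of the other zones lay above those of zone 1, and no contrast passed (adjusted p = 0.089, 0.087 and 0.11 for zones 2, 3 and 4 against zone 1). BCAT4 and GSTU20 were dim, with signals from 1.31 to 32.4 and from 2.08 to 49.7.

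Of the triterpene partners, AT5G47950 and AT5G47980, acyltransferase genes of the thalianol cluster, were tested. AT5G47950 was higher than in zone 1 in zones 2, 3 and 4, by 5.31-fold, 8.73-fold and 5.13-fold (limma, adjusted p = 0.0043, 0.00024 and 0.0023), and the zone 2 call ended without zone 2 replicate 2 (adjusted p = 0.078). Its means were 140 ± 31.4, 748 ± 214, 1229 ± 332 and 710 ± 51.3 in zones 1 to 4 (SD, n = 2). AT5G47980 had means of 63.2, 115, 122 and 85.2 and passed in no contrast. No triterpene P450 is among the 23 genes.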

How the data were processed

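RNA of 8 root samples was amplified in 2 cycles for Affymetrix arrays, as the labels' protocols state. The authors deposited linear intensity values made with MAS5 (per the submitters' processing notes); version and chip definition: not given in the sources used here. Of 22810 probe sets, 64 controls were left out. The platform annotation paired 13513 of the remaining 22746 with 1 gene, 503 with several, and 8730 stayed unnamed. Locus tags came from the TAIR10.1 gene table, which matched all 23 P450 genes. Its chromosomes and start positions set the gene order behind the runs and the counts of genes between members. Signals were turned to log2 with no offset. The 40% of probe sets with the lowest mean were dropped, and 13647 were tested.

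A model with a mean for each zone was fitted with limma 3.58.1 (R 4.3.3) over the 8 arrays, leaving 4 residual degrees of freedom, with eBayes and a trend. It gave a moderated F-test and 6 two-sided contrasts, adjusted by Benjamini-Hochberg over all 13647. The fit was also run on simulated data with independent normal noise for the kept probe sets. That run does not test the filter or the behaviour of dim signals. Folds are 2 to the power of the log2 difference, so they compare geometric means. Every P450 gene could be named. By the rule, values were given in full for called genes, those with an assigned role and the brightest of a family with 3 or more tested genes. CYP71B26, CYP51G2 and some dim CYP71B genes, among them CYP71B21, CYP71B23 and CYP71B35, were described outside that rule. The members and lists were chosen with earlier results of these data known. Alternatives were quantile or median scaling, other filters, a floor on dim signals, other prior variances, a replicate block, no minimum fold and leaving out arrays. Plots used Python 3.11.15 and matplotlib 3.10.9.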

Additional observations from a re-analysis of the deposited data

How the results depend on the processing

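Calls rest on few arrays. With 60% of probe sets left out, CYP71B34, CYP71B26 and CYP51G2 were no longer tested, and only CYP84A4 and CYP71B6 remained. Of these, 1 passed the F-test, 1 was called in zone 3 against zone 1 and 1 in zone 4 against zone 1, in place of 2 each. Leaving out single arrays gave 0 to 2 in the F-test, 1 to 3 in zone 3 against zone 1, 0 to 2 in zone 4 against zone 1, and 0 in the other 4 contrasts. In zone 3 against zone 1 the third gene was CYP71B26, lower in zone 3, without zone 1 replicate 2, and without zone 3 replicate 2 it was the 1 gene called. Without zone 2 replicate 1 and zone 3 replicate 2 together, arrays chosen after seeing the data, the F-test and zone 4 against zone 1 had 2, and zone 3 against zone 1 had 3, CYP71B26 (-2.16, adjusted p = 0.035) being added. Deviations of same-numbered arrays correlated between -0.19 and 0.037, so no strong shared deviation was seen. These values cannot tell whether replicate numbers pair the samples, since paired samples need not share a deviation. With a replicate block the counts were 2, 2 and 2 and no call of a P450 gene or partner changed.

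Some uncalled log2 differences turned sign. CYP51G2 in zone 4 against zone 3 was -0.080 with quantile normalization, -0.11 with median centring and -0.12 to 0.39 with single arrays left out. In zone 3 against zone 1 it was -0.067 with quantile normalization, -0.42 to 0.70 with single arrays left out, and -0.12 without the 2 arrays named above. In zone 4 against zone 1 it was -0.15 with quantile normalization, -0.088 with median centring and -0.28 to 0.84 with single arrays left out. CYP71B6 in zone 3 against zone 1 was 0.012 with quantile normalization, -0.50 to 0.30 with single arrays left out, and 0.30 without those 2 arrays. With single arrays left out, CYP71B26 was -1.21 to 0.073 in zone 2 against zone 1, -1.59 to 0.073 in zone 3 against zone 2 and -0.37 to 1.29 in zone 4 against zone 3, and CYP84A4 was -0.27 to 1.16 in zone 4 against zone 3. The cause of these turns was not tested.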

Other observations

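CYP718 (AT2G42850), a P450 whose symbol has no subfamily letter and which the rule therefore left out, had signals of 6.17 and 10.2 in zone 1, 164 and 24.5 in zone 2, 117 and 130 in zone 3, and 90.3 and 183 in zone 4. Both zone 1 arrays lay below the 6 others. With a mean of 90.6 its probe set passed the filter and was in the fit, but its test result was not taken out. A further 2 probe sets that hold P450 genes are paired with more than 1 gene and are not used here.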
